A study of Mus musculus with 56 samples.

Results

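Ankrd1, Ankrd2 and Ankrd23 encode the muscle ankyrin repeat proteins, which bind the elastic N2A segment of titin, a very long sarcomere protein that acts as a spring. They were taken as the rows of the deposited table that carry these names, 3 genes of 14870, and all 3 passed the filter on low values. Bulk RNA sequencing covered 56 samples of the tibialis anterior, the muscle along the shin, from mice. HOMO and HET muscles were homozygous and heterozygous for the titin mechanical knock-out (mKO) allele, which builds a cutting site for the plant virus protease TEV into titin, and WT muscles were wild type. AAV muscles had received an adeno-associated virus that encodes TEV protease fused to green fluorescent protein, and saline muscles the buffer alone. HOMO AAV and saline groups held 4 and 4 samples at 3 days post injection (dpi), 5 and 4 at 7 dpi, and 4 and 4 at 21 dpi. HET AAV and saline groups held 4 and 4 samples at 7 dpi. WT AAV and saline groups held 5 and 3 samples at 3 dpi, 4 and 3 at 7 dpi, and 4 and 4 at 21 dpi. The labels give no age, no promoter for the virus and no animal for each sample, so the p-values measure the spread between samples, part of which may be technical.

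In the GRCm38 build Ankrd1 (ENSMUSG00000024803) spans chr19:36111961-36120099 on the minus strand and Ankrd2 (ENSMUSG00000025172) chr19:42036000-42045110 on the plus strand. Ankrd23 (ENSMUSG00000067653) spans chr1:36530188-36536883 on the minus strand. Each has 9 exons in the GENCODE annotation.

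Ankrd1 encodes CARP, which is found both at the titin spring and in the nucleus, and its gene is a widely used target of the transcriptional co-activator YAP and its DNA-binding partners of the TEAD family. Ankrd2 encodes Arpp, a protein enriched in slow fibres whose messenger RNA is known to increase when muscle is stretched. Ankrd23 encodes DARP, the third member of the family. Because they sit on the titin spring and can move to the nucleus, these proteins have long been discussed as links between mechanical load and gene expression. In this model the protease cuts the titin protein and not its messenger RNA.

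The promoters are shown because Ankrd1 is a known TEAD target. RefSeq (GRCm38.p6) promoter windows matched 3 of 3 genes, with 2 alternative starts for Ankrd23, and each runs from 250 bases before the start of transcription to 50 bases after it, read 5′ to 3′ on the gene's strand. Capitals mark the TEAD motif CATTCC on either strand.
Ankrd1 promoter, chr19:36119795-36120094, minus strand: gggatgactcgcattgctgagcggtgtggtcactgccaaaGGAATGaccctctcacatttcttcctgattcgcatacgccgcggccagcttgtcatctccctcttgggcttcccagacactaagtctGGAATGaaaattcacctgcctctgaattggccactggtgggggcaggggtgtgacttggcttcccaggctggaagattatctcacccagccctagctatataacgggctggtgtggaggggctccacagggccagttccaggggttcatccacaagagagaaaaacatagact
Ankrd2 promoter, chr19:42035777-42036076, plus strand: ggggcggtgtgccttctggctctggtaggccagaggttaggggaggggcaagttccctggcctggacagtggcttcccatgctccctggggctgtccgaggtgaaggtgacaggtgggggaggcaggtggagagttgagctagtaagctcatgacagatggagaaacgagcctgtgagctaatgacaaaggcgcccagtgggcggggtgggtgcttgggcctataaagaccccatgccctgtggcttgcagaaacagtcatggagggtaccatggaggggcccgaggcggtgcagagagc
Ankrd23 promoter 1, chr1:36536507-36536806, minus strand: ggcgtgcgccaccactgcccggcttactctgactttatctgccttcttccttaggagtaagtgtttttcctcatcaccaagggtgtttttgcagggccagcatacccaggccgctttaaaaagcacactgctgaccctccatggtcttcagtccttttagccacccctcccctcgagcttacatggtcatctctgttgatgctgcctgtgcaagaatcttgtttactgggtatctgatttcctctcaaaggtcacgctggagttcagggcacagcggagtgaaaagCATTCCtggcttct
Ankrd23 promoter 2, chr1:36535690-36535989, minus strand: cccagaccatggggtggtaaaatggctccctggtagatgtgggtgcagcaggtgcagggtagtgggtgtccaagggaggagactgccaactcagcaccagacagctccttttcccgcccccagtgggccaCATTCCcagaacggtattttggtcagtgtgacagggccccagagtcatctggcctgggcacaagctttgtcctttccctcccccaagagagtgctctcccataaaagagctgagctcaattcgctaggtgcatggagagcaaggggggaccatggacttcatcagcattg

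The Ankrd1 window held CATTCC at 210 and 123 bases before the start. The Ankrd23 windows held it at 36 bases after the first start and 120 bases before the second, and no match was found in the Ankrd2 window. Of 32851 promoter windows of this length, 14.7% held the motif. The E-box CANNTG, which overlaps none of these matches, was found at 140, 127 and 96 bases before the Ankrd2 start, at 111 bases before the Ankrd1 start and at 202 and 75 bases before the second Ankrd23 start, and 72.3% of all windows held it. The Ankrd2 window also held the TATA box TATAAA at 29 bases before the start, as did 13.6% of all windows at any place. The MEF2 box and the CArG box, present in 3.19% and 1.63% of all windows, were found in none of the 4 windows. These matches describe the letters only.

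Libraries held 6901207 to 27180498 recovered reads. The lowest was HOMO AAV replicate 2 at 7 dpi, and the next held 14981061. The transgene had 56 to 34407 reads in AAV libraries and 0 to 6 reads in saline libraries, and its mean level in HOMO AAV muscle was 49.4, 22.4 and 640 normalised counts at 3, 7 and 21 dpi. It was 86.6 in HET AAV muscle at 7 dpi, and 17.2, 240 and 756 in WT AAV muscle at 3, 7 and 21 dpi, so the genotypes were not compared at equal transgene levels. The 11 skeletal muscle fibre markers summed to at least 72854 normalised counts in every library, whereas the 4 cardiac markers found in the table, of 10 looked for, summed to between 7.96 and 123. A normalised count is the deposited value, a read number scaled for an effective library size. That size was 0.859 to 1.493 times the recovered reads. At 7 dpi this factor was 1.164 to 1.282 in HOMO AAV muscle and 0.893 to 0.939 in HOMO saline muscle. A larger factor gives lower values, and plain scaling to total reads was not tested.

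Across the 56 libraries Ankrd1 spanned the widest range of the 3 genes, from 2.70 to 1657 normalised counts (56 to 51693 reads), a 614-fold range. Ankrd2 ranged from 16.1 to 661 normalised counts, or 41.1-fold, and Ankrd23 from 463 to 4292, or 9.27-fold. Per kilobase of transcript, Ankrd23 was the highest of the 3 in HOMO saline muscle at 7 dpi, with a mean of 1027 normalised counts per kilobase against 231 for Ankrd2 and 23.4 for Ankrd1. In HOMO AAV muscle at 21 dpi the means per kilobase were 491 for Ankrd23, 93.0 for Ankrd2 and 513 for Ankrd1, so the Ankrd1 mean was within the range of Ankrd23 libraries, 203 to 683.

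**Figure D1:**
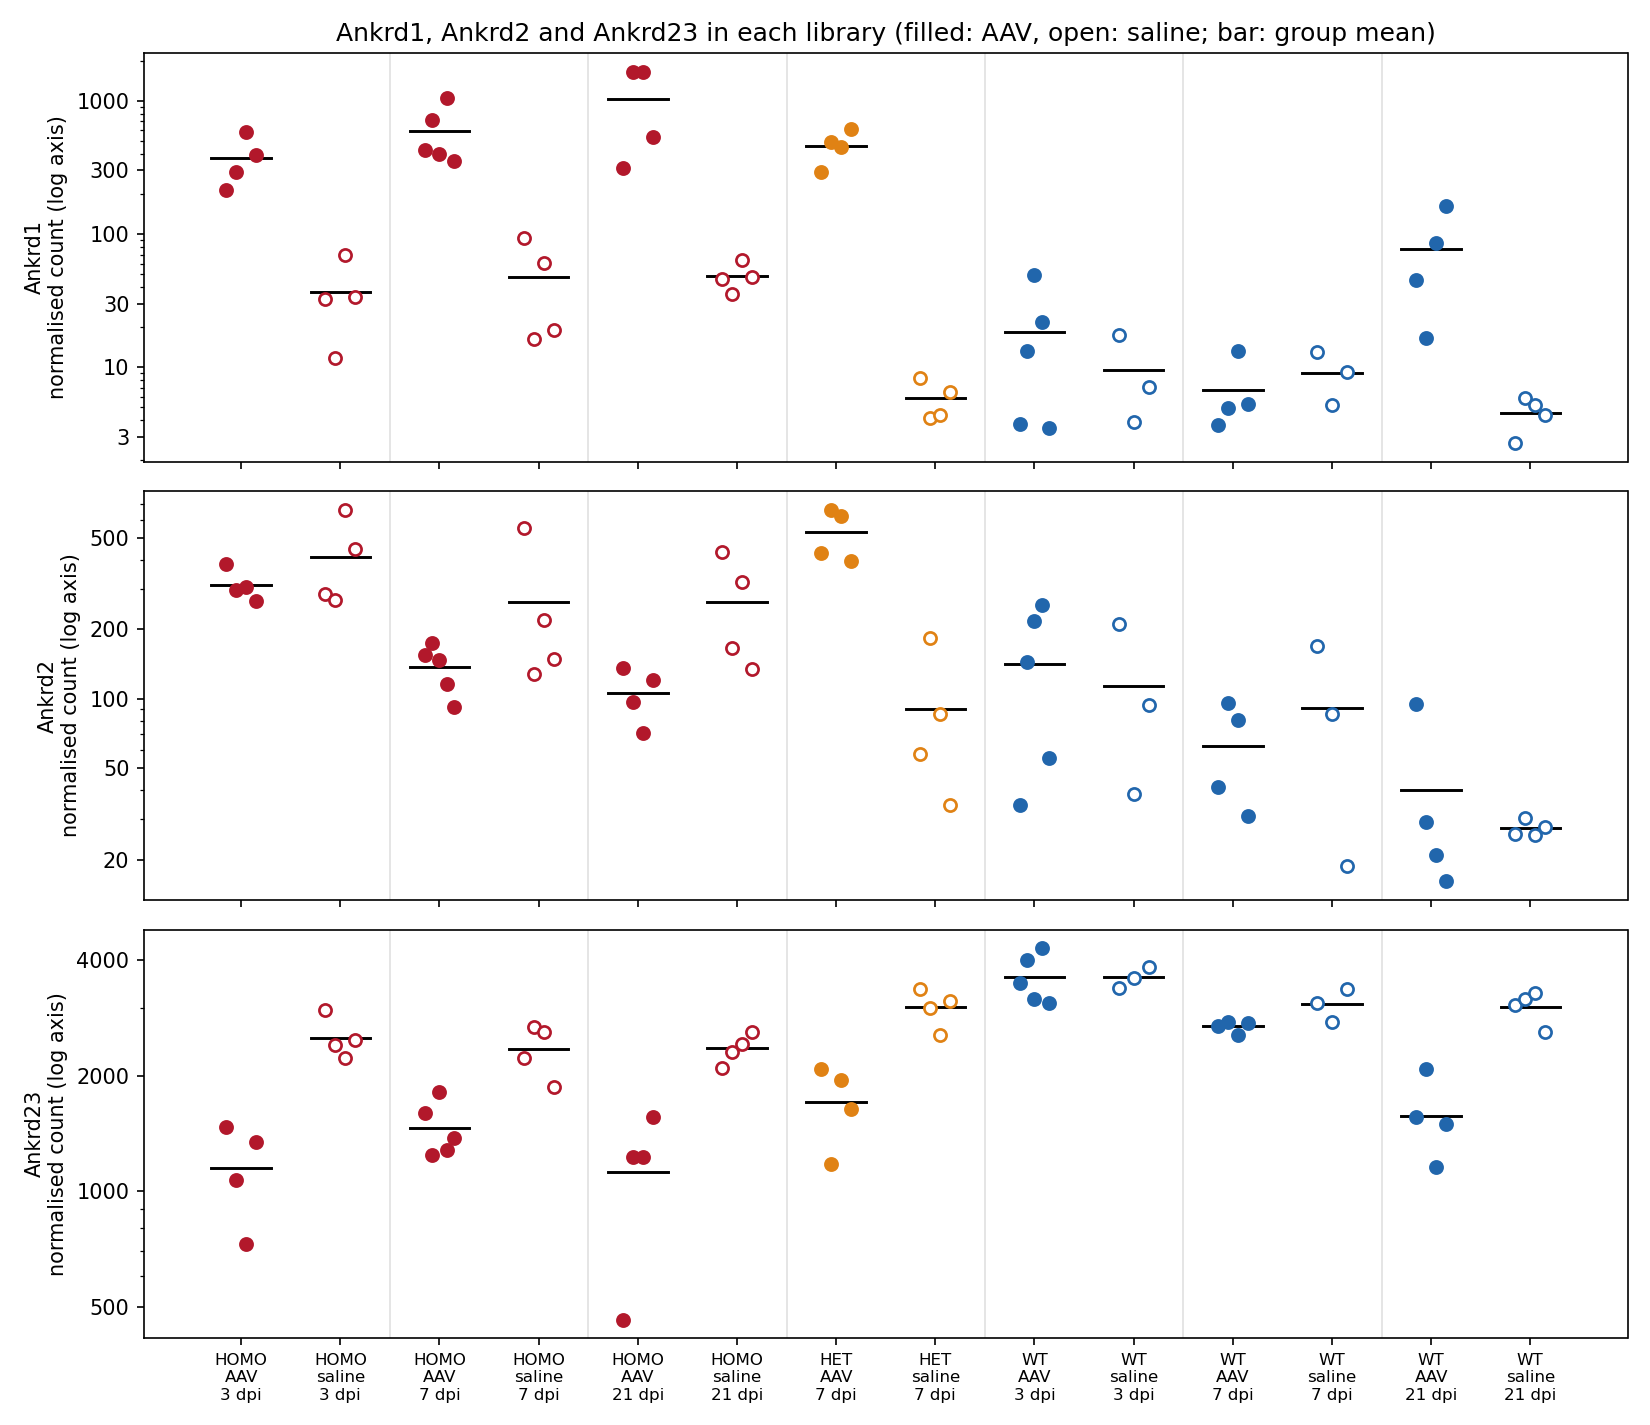
Normalised counts (vertical log axes) of Ankrd1, Ankrd2 and Ankrd23 in each of the 56 libraries, by group. Each point is 1 library, filled for AAV and open for saline, in red for HOMO, orange for HET and blue for WT, and bars are group means. Every HOMO and HET AAV library had more Ankrd1, at 215 to 1657 normalised counts, than any other library, the highest of which was a WT AAV library at 163.

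In the order of group means, Ankrd1 was highest in HOMO AAV muscle at 21 dpi (1037 ± 715 normalised counts, SD, n = 4), followed by HOMO AAV at 7 dpi (589 ± 291, n = 5), HET AAV at 7 dpi (461 ± 131, n = 4) and HOMO AAV at 3 dpi (371 ± 158, n = 4). The libraries of these 4 groups overlapped from each to the next. The next group, WT AAV at 21 dpi (77.7 ± 63.7, n = 4), lay entirely below them, and this was the single break among the 13 steps of the order. Ankrd2 was highest in HET AAV muscle (527 ± 133, n = 4) and lowest in WT saline muscle at 21 dpi (27.4 ± 2.23, n = 4). Ankrd23 ran from 1118 ± 463 in HOMO AAV muscle at 21 dpi (n = 4) to 3607 ± 231 in WT saline muscle at 3 dpi (n = 3). For Ankrd2 and Ankrd23, each of the 13 steps between neighbouring groups overlapped.

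Ankrd1 rose with AAV in HOMO muscle on each day. At 3 dpi it stood at 215, 294, 581 and 393 normalised counts in HOMO AAV muscle, against 32.6, 11.8, 69.7 and 33.5 in HOMO saline muscle. The groups did not overlap, as for 27.7% of all genes, and the lowest AAV library was about 3 times as high as the highest saline library. The log2 change was 3.44 ± 0.61 (SE; limma adjusted p = 2.46e-05), the 9th largest rise of 13017 genes tested. Of the 3 genes, 1 rose and 1 fell in this comparison. Of all genes, 34.6% were called at an adjusted p under 0.05, 17.4% higher and 17.2% lower. In bulk muscle fewer cells of a type and less RNA per cell cannot be told apart.

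At 7 dpi Ankrd1 stood at 425, 722, 402, 1041 and 356 normalised counts in HOMO AAV muscle, against 92.7, 16.3, 60.7 and 19.1 in HOMO saline muscle. Saline replicates 1 and 3 were higher than replicates 2 and 4, and all were below every AAV library, in a comparison in which 33.6% of all genes did not overlap. The log2 change was 3.84 ± 0.58 (limma adjusted p = 9.01e-07), and again 1 of the 3 genes rose and 1 fell, against 43.1% of all genes called, 20.6% higher and 22.5% lower. At 21 dpi the HOMO AAV libraries had 315, 1646, 1657 and 531 normalised counts of Ankrd1, against 46.0, 35.3, 63.6 and 47.4 in HOMO saline libraries. AAV replicates 2 and 3 were well above replicates 1 and 4, and the groups did not overlap, as for 44% of all genes. The log2 change was 4.10 ± 0.61 (limma adjusted p = 1.63e-07), with 1 gene risen and 1 fallen of 3, beside 59.3% of all genes called, 29.7% higher and 29.6% lower.

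The HOMO response of Ankrd1 was not shown to change over time. Its log2 change was larger by 0.40 ± 0.84 at 7 than at 3 dpi (limma adjusted p = 0.844; 95% interval of the difference -1.29 to 2.09) and by 0.25 ± 0.84 at 21 than at 7 dpi (adjusted p = 0.881; -1.43 to 1.94). None of the 3 genes was called in either of these tests, in which 5.96% and 13.8% of all genes were.

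In HET muscle at 7 dpi Ankrd1 had the largest rise of all 13017 genes tested. It stood at 293, 490, 451 and 611 normalised counts in HET AAV muscle, against 8.30, 4.17, 4.41 and 6.54 in HET saline muscle. The saline libraries held 79 to 152 reads of the gene, and no AAV library was under 6652. The log2 change was 6.07 ± 0.61, a 67.2-fold rise (limma adjusted p = 1.13e-10). All 3 genes were called in this comparison, 2 higher and 1 lower, as were 40.4% of all genes, 19.6% higher and 20.8% lower. Of all genes tested, 41.4% had groups that did not overlap, as the 3 genes did. HET AAV levels of Ankrd1 overlapped the HOMO AAV levels of 7 dpi, 356 to 1041, with HET AAV replicate 1 below them at 293, while HET saline levels lay below the HOMO saline levels of that day. The difference between the HOMO and HET responses, -2.23 ± 0.84, did not pass (limma adjusted p = 0.16; 95% interval -3.91 to -0.54).

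In WT muscle Ankrd1 was called at 21 dpi. WT AAV libraries at 21 dpi had 45.0, 16.6, 85.9 and 163 normalised counts, against 2.70, 5.87, 5.19 and 4.41 in WT saline libraries. The AAV libraries spread 9.80-fold among themselves and all lay above the saline libraries, and 36.3% of all genes had groups that did not overlap. The log2 change was 3.43 ± 0.61 (limma adjusted p = 1.51e-05), with 1 of the 3 genes risen and 1 fallen, and 40.9% of all genes called, 19.7% higher and 21.3% lower.

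At 3 dpi the WT AAV libraries had 3.77, 13.2, 49.1, 21.8 and 3.48 normalised counts of Ankrd1, against 17.4, 3.91 and 7.06 in WT saline libraries. At 7 dpi they had 3.67, 4.96, 13.3 and 5.27, against 12.9, 5.19 and 9.13 in WT saline libraries. The groups overlapped on both days. The log2 changes were 0.51 ± 0.63 and -0.44 ± 0.66, both with a limma adjusted p of 1. In these comparisons limma called 0 of the 3 genes and 0 of all genes (0%). At an unadjusted p under 0.05, 430 genes passed at 3 dpi and 210 at 7 dpi. By edgeR 0 and 0 genes were called, and by DESeq2 8 and 7. The WT response of Ankrd1 was larger at 21 than at 7 dpi by 3.87 ± 0.90 (limma adjusted p = 0.00217), where 19.2% of all genes were called, 10.5% higher, and 1 of the 3, higher.

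The test of the difference between responses set Ankrd1 apart by genotype at 3 and 7 dpi. The HOMO response exceeded the WT response by 2.93 ± 0.88 at 3 dpi (limma adjusted p = 0.0263) and by 4.28 ± 0.88 at 7 dpi (adjusted p = 0.000626). The call at 3 dpi was lost without WT saline replicate 1 (2.41), WT AAV replicate 1 (2.57) or 5 (2.55), HOMO saline replicate 2 (2.49) or HOMO AAV replicate 3 (2.68), and also under edgeR (2.39, adjusted p = 0.0862) and DESeq2 (2.37, adjusted p = 0.0707). The HET response exceeded the WT response by 6.51 ± 0.90 at 7 dpi (limma adjusted p = 1.03e-06). At 21 dpi, where the WT gene rose too, the difference between HOMO and WT responses was 0.66 ± 0.86 (limma adjusted p = 0.71; 95% interval -1.07 to 2.40). Of the 3 genes, 2 were called in the HOMO and WT test at 3 dpi, 1 at 7 dpi and 0 at 21 dpi, and 2 in the HET and WT test. The shares of all genes called were 9.75% (5.39% higher and 4.36% lower), 20.2% (9.29% higher) and 5.62% on the 3 days, and 20.2% (10.3% higher) for HET.

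**Figure D2:**
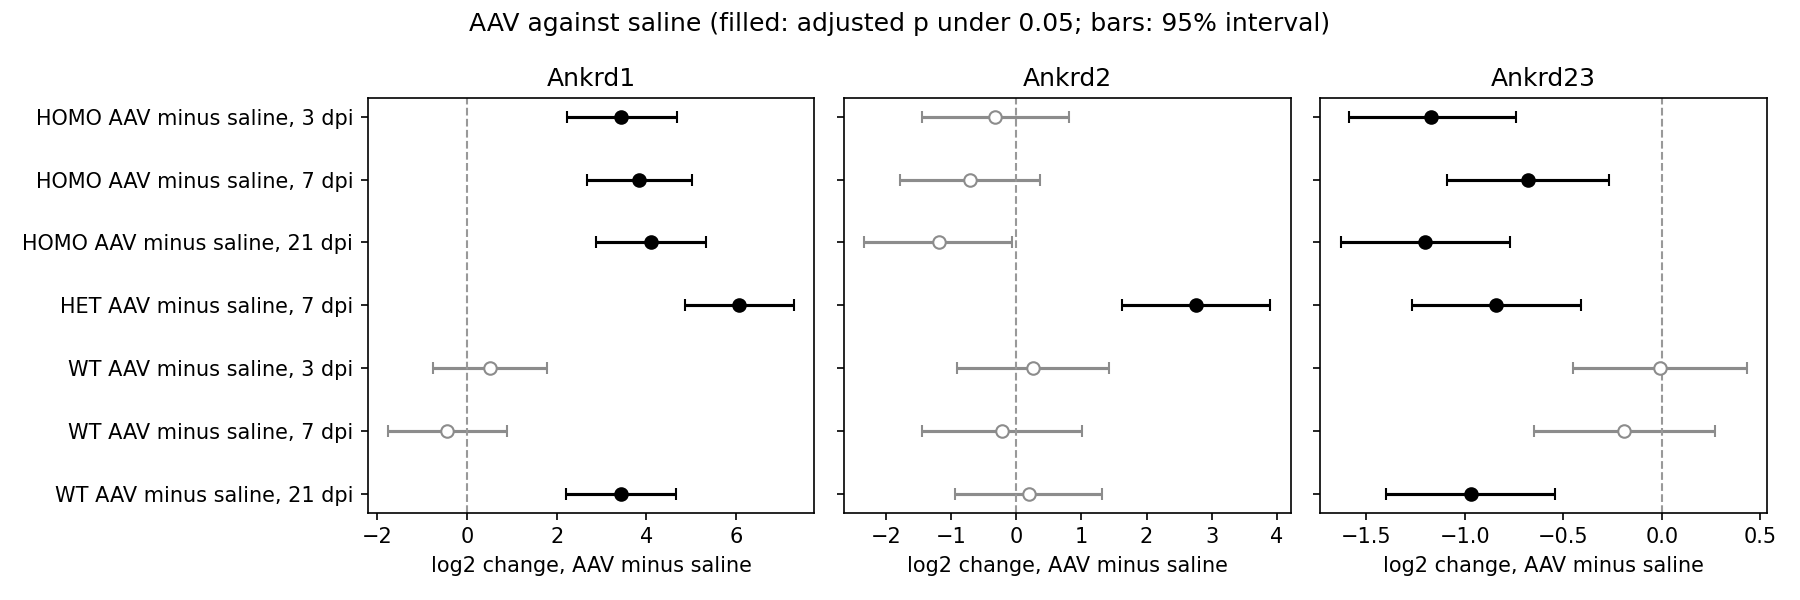
Log2 change, AAV minus saline (horizontal axes), of Ankrd1, Ankrd2 and Ankrd23 in 7 comparisons; points are limma estimates with 95% intervals, filled where the adjusted p was under 0.05. Ankrd1 rose in 5 comparisons, from 3.43 in WT muscle at 21 dpi to 6.07 in HET muscle, Ankrd2 rose in HET muscle only among these tests (2.76), and Ankrd23 fell in 5, by 0.68 to 1.20.

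Ankrd2 rose with AAV in HET muscle, and no change was called in HOMO or WT muscle. It stood at 431, 661, 622 and 396 normalised counts in HET AAV muscle, against 57.6, 184, 85.9 and 34.4 in HET saline muscle. The groups did not overlap, as for 41.4% of all genes, although the saline libraries themselves spread 5.34-fold. The log2 change was 2.76 ± 0.56, or 6.79-fold (limma adjusted p = 0.000108), the 36th largest rise of 13017.

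In HOMO muscle at 3 dpi Ankrd2 stood at 384, 298, 306 and 265 normalised counts with AAV, against 285, 267, 658 and 447 with saline. At 7 dpi it stood at 155, 175, 147, 116 and 91.6 with AAV, against 554, 128, 219 and 148 with saline, and at 21 dpi at 136, 96.7, 70.9 and 120 with AAV, against 435, 166, 321 and 135 with saline. The groups overlapped on each day, and saline libraries were the more variable. At 21 dpi the level was lower with AAV in each of the 4 pairs of libraries with the same number. The log2 changes were -0.32 ± 0.56, -0.71 ± 0.53 and -1.19 ± 0.56 (limma adjusted p = 0.698, 0.285 and 0.0639). The last passed under edgeR (-1.29, adjusted p = 0.0452), under DESeq2 (-1.30, adjusted p = 0.0391) and without HOMO saline replicate 4 (-1.46), but not with the pairs as a block (-1.19, limma adjusted p = 0.0633).

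The HOMO response of Ankrd2 was below the HET response by 3.48 ± 0.78 at 7 dpi on the log2 scale (limma difference -3.48, adjusted p = 0.00428), and 3.24% of all genes, 2.54% as lower, and 1 of the 3 were called in this test. The HET response was above the WT response by 2.98 ± 0.83 (limma adjusted p = 0.00815). WT saline replicate 1 at 7 dpi decided that call, since without it the difference was 2.30 (adjusted p = 0.06). In WT AAV muscle Ankrd2 ranged from 34.5 to 256 normalised counts at 3 dpi, from 30.8 to 95.5 at 7 dpi and from 16.1 to 95.1 at 21 dpi, against 38.4 to 210, 18.7 to 169 and 25.6 to 30.3 in WT saline muscle. The groups overlapped on each day. The log2 changes were 0.26, -0.22 and 0.19 (limma adjusted p = 1, 1 and 0.822).

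Ankrd23 moved the other way. It fell in HOMO muscle on each day, in HET muscle, and in WT muscle at 21 dpi. At 3 dpi it stood at 1466, 1071, 727 and 1342 normalised counts in HOMO AAV muscle, against 2955, 2403, 2219 and 2471 in HOMO saline muscle (log2 change -1.17 ± 0.21, limma adjusted p = 3.85e-05). The groups did not overlap, as for 27.7% of all genes. At 7 dpi it ranged from 1240 to 1812 in HOMO AAV muscle, against 1868 to 2668 in HOMO saline muscle (-0.68 ± 0.20, adjusted p = 0.00567), and quantile normalization ended this call (-0.30, adjusted p = 0.191). At 21 dpi it stood at 463, 1225, 1229 and 1556 in HOMO AAV muscle, against 2089, 2309, 2410 and 2602 in HOMO saline muscle (-1.20 ± 0.21, adjusted p = 4.83e-06). AAV replicate 1 was the lowest of all 56 libraries.

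In HET muscle Ankrd23 stood at 2077, 1177, 1946 and 1639 normalised counts with AAV, against 3364, 2997, 2557 and 3134 with saline (log2 change -0.84 ± 0.21, limma adjusted p = 0.0014). In WT muscle at 21 dpi it stood at 1556, 2080, 1159 and 1495 with AAV, against 3049, 3172, 3273 and 2596 with saline (-0.97 ± 0.21, adjusted p = 0.000295). In both comparisons every AAV library was below every saline library, where 41.4% of all genes in HET muscle and 36.3% in WT muscle did not overlap. In WT muscle it ranged from 3081 to 4292 with AAV against 3383 to 3845 with saline at 3 dpi, and from 2549 to 2755 with AAV against 2762 to 3368 with saline at 7 dpi. The groups at 7 dpi did not overlap, as for 3.96% of all genes, but the log2 change of -0.19 ± 0.23 did not pass (limma adjusted p = 1). The HOMO response was below the WT response at 3 dpi (-1.15 ± 0.31, limma adjusted p = 0.0129), a call lost without HOMO AAV replicate 3 (-0.95, adjusted p = 0.0556). The gene Gm42417 overlaps Ankrd23 by 6691 bases on the same strand. Its levels averaged 12.6 normalised counts, and summing it with Ankrd23 left the 5 calls in place, at -0.68 to -1.20.

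Muscle fibre markers fell and macrophage markers rose in the same comparisons. Of 11 muscle fibre markers, 10 fell in HOMO muscle at each of 3, 7 and 21 dpi, 8 in WT muscle at 21 dpi, and 5 in HET muscle, where 1 rose. Their summed level was 97566 to 131397 normalised counts in HOMO AAV muscle at 7 dpi, against 188200 to 196803 in HOMO saline muscle. It was 122000 to 167872 in HET AAV muscle against 191346 to 196751 in HET saline muscle, and 94881 to 146011 in WT AAV muscle at 21 dpi against 185151 to 198271 in WT saline muscle. All 12 macrophage markers rose in the 5 comparisons. Their sum was 318 to 502 in HOMO AAV muscle at 7 dpi against 70.5 to 110 in HOMO saline muscle, 242 to 450 in HET AAV muscle against 61.2 to 110 in HET saline muscle, and 335 to 1071 in WT AAV muscle at 21 dpi against 63.8 to 78.1 in WT saline muscle. The part of these shifts in the levels of the 3 genes was not tested beyond the scaling that follows. Set against the summed fibre markers, a scale chosen after seeing the data, Ankrd1 still rose in the 5 comparisons, by 3.95 to 6.50, and Ankrd2 in HET muscle by 3.20. On the same scale Ankrd23 stood at -0.66, 0.05 and -0.16 in HOMO muscle at 3, 7 and 21 dpi (limma adjusted p = 0.00152, 0.787 and 0.37), at -0.41 in HET muscle (adjusted p = 0.0453) and at -0.32 in WT muscle at 21 dpi (adjusted p = 0.0897). This scale moved the median of all genes to 0.49, 0.72 and 1.04 in HOMO muscle, 0.43 in HET muscle and 0.63 in WT muscle, and Ankrd23 lay below that median each time.

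In saline muscle the HOMO genotype had more Ankrd1 and Ankrd2 than WT at 21 dpi. Ankrd1 stood at 46.0, 35.3, 63.6 and 47.4 normalised counts in HOMO saline muscle, against 2.70, 5.87, 5.19 and 4.41 in WT saline muscle. The log2 difference was 3.15 ± 0.61 (limma adjusted p = 0.000619). Ankrd2 stood at 435, 166, 321 and 135 in HOMO saline muscle, against 25.8, 30.3, 25.6 and 27.8 in WT saline muscle. Neither gene overlapped between the genotypes, as for 13.6% of all genes, and the Ankrd2 difference was 3.07 ± 0.56 (limma adjusted p = 0.000316). These 2 of the 3 genes were called, both higher, where 3.32% of all genes were called, 2.60% as higher. HOMO saline libraries held 0 to 6 transgene reads and WT saline libraries 0 to 3.

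At 3 and 7 dpi the same saline comparison gave log2 differences of 1.83 ± 0.66 and 1.98 ± 0.66 for Ankrd1 (limma adjusted p = 0.151 and 0.114), and 2.07 ± 0.61 and 1.73 ± 0.61 for Ankrd2 (adjusted p = 0.0554 and 0.146). None of the 3 genes was called on these days, against 2.28% and 2.08% of all genes. Ankrd2 passed at 3 dpi without WT saline replicate 1 (2.67), and at 7 dpi without WT saline replicate 1 of that day (2.41). Ankrd1 passed at 7 dpi under DESeq2 (2.38, adjusted p = 0.0237). Ankrd23 differed by -0.53, -0.40 and -0.36 on the 3 days (limma adjusted p = 0.287, 0.529 and 0.482).

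HET saline muscle was close to WT saline muscle at 7 dpi in the estimates, with log2 differences of -0.52 ± 0.66 for Ankrd1, 0.20 ± 0.61 for Ankrd2 and -0.03 ± 0.23 for Ankrd23 (limma adjusted p = 1 for each). The 95% intervals were -1.84 to 0.80, -1.03 to 1.42 and -0.49 to 0.43. Of all genes, 0.2% were called. HOMO saline muscle had more Ankrd1 than HET saline muscle, by 2.50 ± 0.61 (limma adjusted p = 0.00734), and the libraries did not overlap, as for 14.6% of all genes. That call, 1 of the 3 genes against 5.12% of all genes (3.59% higher), was lost without HOMO saline replicate 1 (2.06, adjusted p = 0.0682). Ankrd2 differed by 1.54 ± 0.56 (adjusted p = 0.112).

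**Figure D3:**
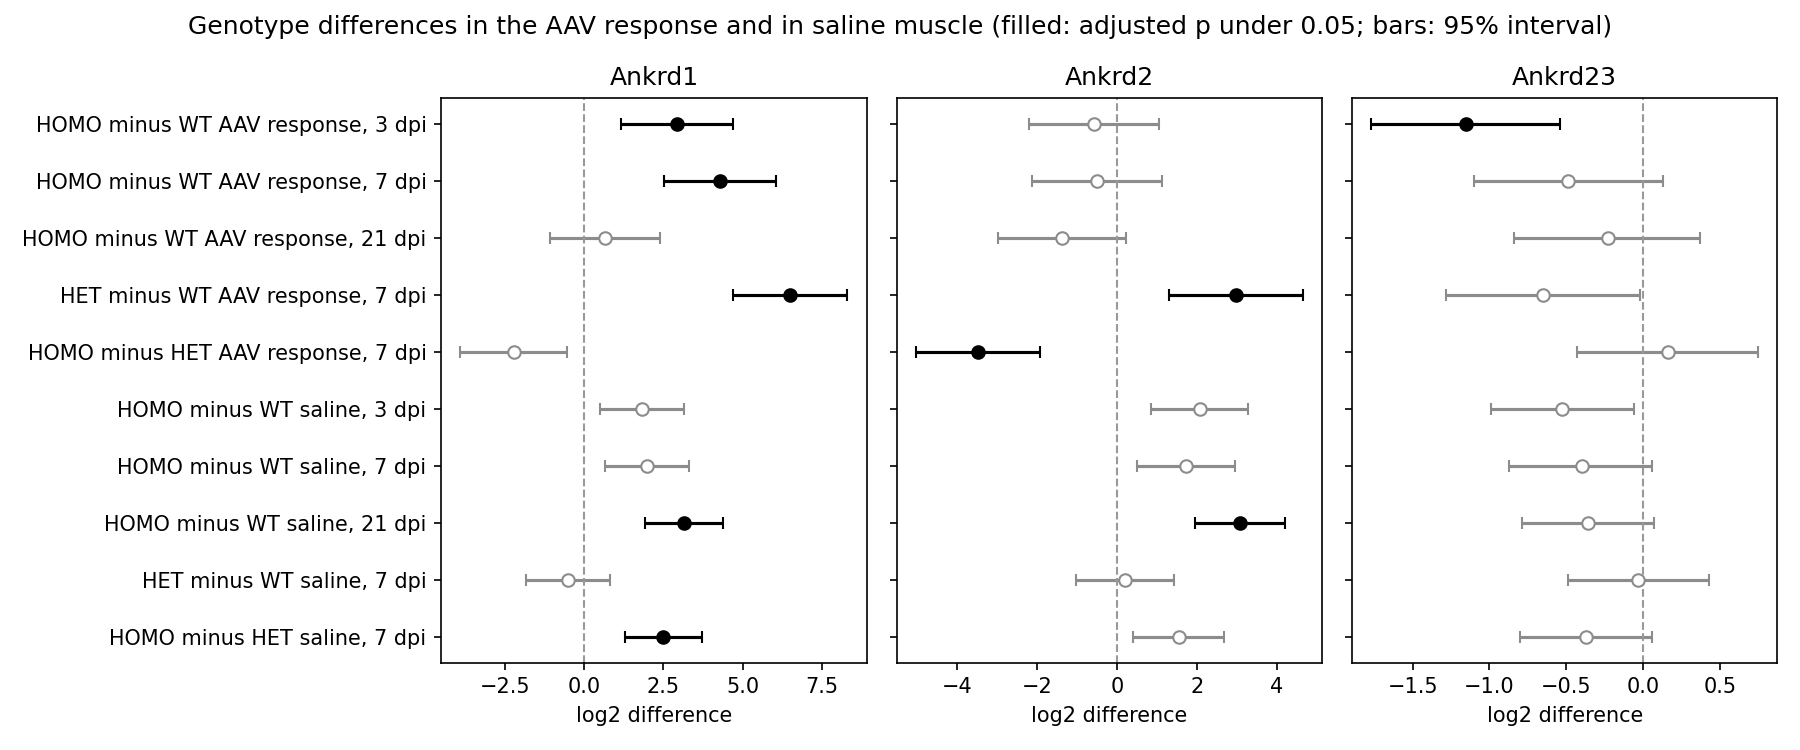
Log2 difference between genotypes (horizontal axes) in the AAV response (upper 5 lines) and in saline muscle (lower 5 lines) for Ankrd1, Ankrd2 and Ankrd23; points are limma estimates with 95% intervals, filled where the adjusted p was under 0.05. Ankrd2 responses differed most between HOMO and HET muscle (-3.48), and saline HOMO muscle at 21 dpi was higher than WT for Ankrd1 (3.15) and Ankrd2 (3.07).

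Ratios taken within each library cancel the scaling between libraries, apart from the effect of the 1 added to each value. That effect is largest where a gene is low, as Ankrd1 is in HET saline muscle (4.17 to 8.30 normalised counts). The log2 ratio of Ankrd1 to Ankrd2 averaged 2.01 ± 0.70 in HOMO AAV muscle at 7 dpi (SD, n = 5) and -2.55 ± 0.50 in HOMO saline muscle (n = 4), a difference of 4.56 (two-sided exact permutation p = 0.0159, adjusted p = 0.0381 over 12 tests). It rose in HOMO muscle by 3.76 at 3 dpi and 5.29 at 21 dpi and in HET muscle by 3.31, and the ratio of Ankrd1 to Ankrd23 rose by 4.52 to 6.91 (exact permutation adjusted p = 0.0381 for each). The ratio of Ankrd2 to Ankrd23 rose in HET muscle by 3.61, with -1.70 ± 0.63 in HET AAV muscle and -5.30 ± 1.08 in HET saline muscle (SD, n = 4 each; exact permutation adjusted p = 0.0381). In HOMO muscle its differences were 0.85, -0.03 and 0.01 at 3, 7 and 21 dpi (exact permutation adjusted p = 0.171, 1.0 and 1.0). With 4 against 4 libraries the smallest p is 0.0286, so each call rests on all 8 libraries. These permutations did not keep same-number libraries together, although those of HOMO muscle at 21 dpi and HET muscle were taken as paired. The ratios were not tested within pairs, so the calls in these 2 comparisons hold only for libraries treated as unpaired.

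**Figure D4:**
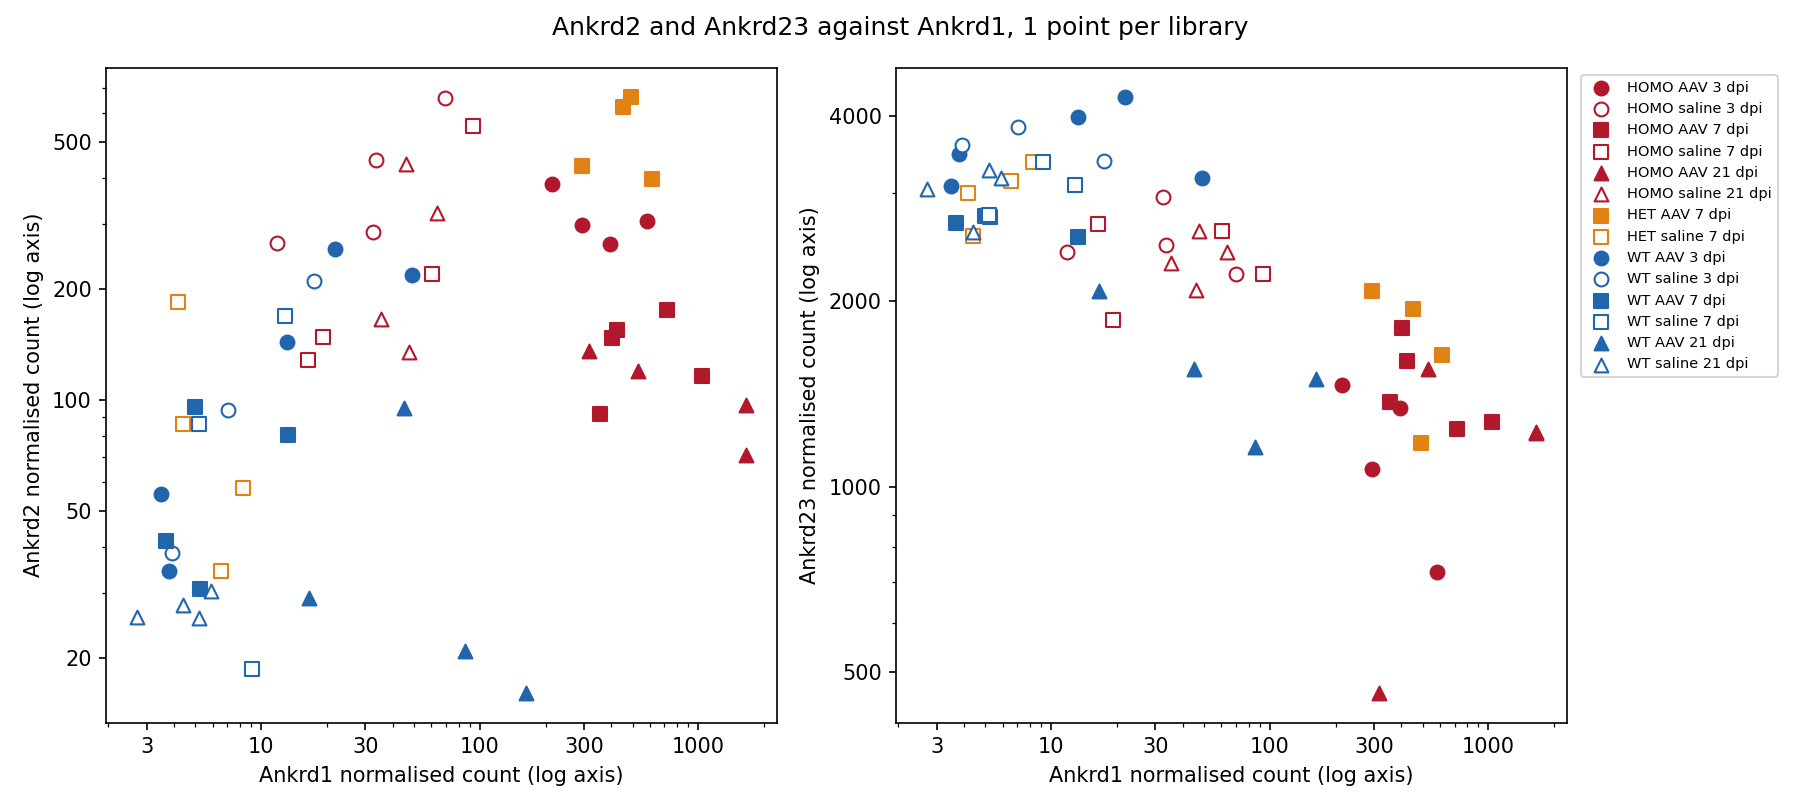
Ankrd2 (left) and Ankrd23 (right) against Ankrd1, as normalised counts on log axes, with 1 point per library, filled for AAV and open for saline; colours give the genotype and shapes the day. HET AAV libraries (orange squares) combine high Ankrd1 (293 to 611) with high Ankrd2 (396 to 661), whereas HOMO AAV libraries at 7 dpi, with 356 to 1041 of Ankrd1, had 91.6 to 175 of Ankrd2.

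Within groups no relation between 2 of the 3 genes passed the test. Over the deviations of 56 libraries from their group means, Ankrd2 and Ankrd1 had Pearson r = 0.34 and Spearman rho = 0.29 (permutation p = 0.053 and 0.079; adjusted p = 0.16 and 0.24 over 3 pairs). Without the 2 libraries farthest from the median of Ankrd1 r was 0.30. Ankrd23 had r = -0.02 with Ankrd1 and -0.08 with Ankrd2 (permutation adjusted p = 0.92 and 0.70). Against the transgene in the 13 HOMO AAV libraries, r was 0.46 for Ankrd1, -0.13 for Ankrd2 and 0.70 for Ankrd23, and none of the 6 relations in HOMO and WT passed (permutation adjusted p = 0.66 to 0.82 for r). Without the 2 libraries farthest from the median of the transgene the HOMO values were -0.24, 0.81 and 0.19, so their signs or sizes rested on those libraries. Of these, r for Ankrd2 passed (permutation adjusted p = 0.016) and its Spearman rho of 0.80 did not (adjusted p = 0.059).

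Over the 14 group means of log2 values, Ankrd1 and Ankrd23 ran in opposite directions (Pearson r = -0.91), Ankrd1 and Ankrd2 had r = 0.53, and Ankrd2 and Ankrd23 had r = -0.29. These are descriptions over groups that share a normalisation. Among 892 genes that averaged 5 CPM or more (reads scaled to an equal library total) and had a spread between group means of at least 0.5, the most like Ankrd1 were Hspb8, a small heat shock protein of chaperone-assisted autophagy (r = 0.991), Bex1 (0.984), Plp2 (0.982), Mvp, the major vault protein (0.979), and Tlr4, an innate immune receptor (0.976). The most opposite were Oplah (-0.984), Pfkfb1 (-0.982) and Alpl (-0.975). Hspb8 had a mean of 1071 normalised counts in HET AAV muscle and 233 in HET saline muscle, a description of a gene chosen for its likeness.

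The genes most like Ankrd2 were Myoz2, a Z-disc protein of slow fibres (r = 0.953), Dnaja4 (0.951), Csrp3, a Z-disc protein implicated in stretch sensing (0.950), Fhl1, which binds titin (0.943), and Hspa1l (0.927). The most opposite were Tbc1d4 (-0.782), Gpx3 (-0.777) and Ighm (-0.773). Csrp3 had means of 1136 and 90.6 normalised counts in HET AAV and saline muscle, and of 276 and 424 in HOMO AAV and saline muscle at 7 dpi. These values describe a gene that was chosen for its likeness to Ankrd2, and no test is given on them. The genes most like Ankrd23 were Ggnbp1 (0.957), Slc16a3, a lactate transporter (0.954), mt-Nd3 (0.953), Tmem52 (0.951) and Smco1 (0.949), and the most opposite Evi2a (-0.970), Cstb (-0.960) and Sgpl1 (-0.957).

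Partners of the titin spring and the Z-disc were counted from a list of 24 genes, 23 of them tested. In HOMO muscle at 3, 7 and 21 dpi 4, 2 and 3 rose and 12, 8 and 11 fell (median log2 change -0.45, -0.16 and -0.42, against -0.01 to 0.00 for all genes). In HET muscle 11 rose and 3 fell (median 0.05), and in WT muscle at 21 dpi 2 rose and 9 fell (median -0.13). Of all genes, 17.4%, 20.6% and 29.7% rose and 17.2%, 22.5% and 29.6% fell in HOMO muscle at 3, 7 and 21 dpi. In HET muscle 19.6% rose and 20.8% fell, and in WT muscle at 21 dpi 19.7% and 21.3%. These shares stand beside the counts of each list below as well. Ttn itself fell in HOMO muscle by 0.55, 0.57 and 0.87 (limma adjusted p = 0.000798, 0.000215 and 1.59e-07) and in WT muscle at 21 dpi by 0.53 (adjusted p = 0.000852), with -0.25 in HET muscle (adjusted p = 0.121). Capn3, a protease held on the same titin segment, fell by 0.80 ± 0.09 in HOMO muscle at 7 dpi (limma adjusted p = 5.79e-09) and by 0.57 ± 0.10 in WT muscle at 21 dpi (adjusted p = 9.29e-06). Des, which encodes the intermediate filament desmin, rose by 0.99 ± 0.11 in HOMO muscle at 7 dpi (limma adjusted p = 1.24e-09). In HOMO against WT saline muscle at 21 dpi 10 of the 23 rose and 0 fell (median 0.36). Of all genes, 3.32% were called in that comparison, 2.60% as higher. The HOMO response was below the HET response in 6 of the 23, and above it in 0. In this test 3.24% of all genes were called, 2.54% as lower. The 6 were Csrp3, Fhl1, Cryab, Flnc, Xirp1 and Xirp2, of which Cryab, Flnc, Xirp1 and Xirp2 were named after their values were seen. Csrp3 and Fhl1 were also among the genes chosen for their likeness to Ankrd2.

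Of 21 YAP and TEAD target genes tested, 5, 7 and 12 rose and 4, 0 and 1 fell in HOMO muscle at 3, 7 and 21 dpi (median 0.11, 0.26 and 0.60). In HET muscle 7 rose and 3 fell, and in WT muscle at 21 dpi 7 rose and 4 fell. Of all genes, 19.6% rose and 20.8% fell in HET muscle, and 19.7% and 21.3% in WT muscle at 21 dpi. Ccn2, a secreted matrix protein, rose by 1.57, 1.06 and 1.43 in HOMO muscle (limma adjusted p = 3.05e-05, 0.00134 and 2.67e-05) and by 1.5 in HET muscle (adjusted p = 3.53e-05), with 0.05 in WT muscle at 21 dpi (adjusted p = 0.904). Ccn1, its relative, rose by 1.07, 1.21 and 1.47 in HOMO muscle and by 1.41 in HET muscle (limma adjusted p = 0.00623, 0.000926, 7.55e-05 and 0.0003), with -0.01 in WT muscle at 21 dpi (adjusted p = 0.987). Tead1, which encodes a DNA-binding partner of YAP, fell by 0.57, 1.19 and 1.36 in HOMO muscle (limma adjusted p = 0.000276, 1.12e-10 and 7.85e-13). The target genes Ccdc80 and Fstl1, which fibroblasts also express, rose by 1.5 and 1.43 in HOMO muscle at 7 dpi (adjusted p = 1.61e-09 and 8.94e-08), where 9 of 11 fibroblast markers rose. The part of that in the counts was not tested.

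Ankrd2 is known from slow fibres, and slow fibre genes were counted beside it. Of 12, 5 rose and 1 fell in HET muscle (median 1.36), and 0, 0 and 5 rose and 4, 3 and 3 fell in HOMO muscle at 3, 7 and 21 dpi (median -0.88, -0.30 and 0.61). In WT muscle at 21 dpi 4 rose and 1 fell (median 0.32). Their summed level at 21 dpi was 662 to 961 normalised counts in HOMO AAV muscle against 540 to 655 in HOMO saline muscle. At 3 dpi it was 334 to 946 in HOMO AAV muscle against 578 to 1781 in HOMO saline muscle. At 7 dpi the sums were 498 to 762 against 628 to 1022 in HOMO muscle, and 668 to 754 against 297 to 510 in HET muscle. Myl2, the slow regulatory light chain, fell by 2.27 ± 0.62 in HOMO muscle at 7 dpi (limma adjusted p = 0.00281) and was higher by 2.52 ± 0.65 in HOMO than WT saline muscle at 21 dpi (adjusted p = 0.0177). Its HOMO response was below its HET response (-3.62 ± 0.90, limma adjusted p = 0.0121), and so was that of Myl3 (-2.82 ± 0.74, adjusted p = 0.0181). Of 13 NF-kappaB genes 6, 7 and 10 rose and 0 fell in HOMO muscle at 3, 7 and 21 dpi, 6 rose and 0 fell in HET muscle, and 8 rose and 1 fell in WT muscle at 21 dpi. Of 12 denervation genes, 7 rose and 1 fell in HOMO muscle at 7 dpi, among them Runx1 (2.17 ± 0.30, limma adjusted p = 1.43e-07), a transcription factor induced in denervated muscle. In HET muscle 9 rose and 1 fell, and in WT muscle at 21 dpi 8 rose and 1 fell, with Runx1 at 2.36 ± 0.31 (limma adjusted p = 6.82e-08). The denervation genes summed to 230 to 383 normalised counts in HOMO AAV muscle at 3 dpi, against 172 to 194 in HOMO saline muscle. At 21 dpi they summed to 341 to 630 in HOMO AAV muscle, against 157 to 181 in HOMO saline muscle.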

How the data were processed

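Bulk RNA was sequenced from 56 tibialis anterior samples in 14 groups of 3 to 5, from libraries made with a directional kit, per the labels' protocols. Each value is a normalised signal that the authors deposited, a read number scaled for an effective library size. Reads were processed with FastQC, Bowtie, RSEM and limma on GRCm38 (mm10), per the submitters' processing notes, and no source used here gives the strand setting. The 14870 genes were tested where their mean was at least 1 CPM, which left 13017 genes and left out 1853. With an offset of 0.5 reads, 100.0% of the deposited values came out as whole reads within 0.02 reads. Those recovered reads, 6901207 to 27180498 per library, fed edgeR 4.0.16, DESeq2 1.42.0 and voom as alternatives.

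The values were tested as log2(value + 1), which understates the fold change of low genes, with limma 3.58.1 in R 4.3.3 (trend, 14 group means, all 56 samples). P-values were adjusted by the Benjamini-Hochberg method over all genes in each of 20 comparisons, and those under 0.05 were called. Within-library ratios used two-sided exact permutation tests that treated all libraries as unpaired. Correlations used deviations from group means and 100000 permutations within groups. Intervals cover 95%.

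The limma step was run on simulated counts with known fold changes, drawn independently and with a single spread setting. That run checks the code and not how the fit behaves on these data. Replicate numbers from the labels were checked for pairing by correlating deviations from group means. In HOMO muscle at 21 dpi and HET muscle at 7 dpi all 4 same-number pairs had r above 0.1 (0.16 to 0.23 and 0.13 to 0.18), and these were taken as paired. In the other 5 AAV comparisons not all same-number pairs had r above 0.1, and they were not taken as paired. Pairs under other numbers can still be present. In HOMO muscle at 7 dpi AAV replicates 2 and 3 had r of 0.28 and 0.23 with saline replicates 1 and 2. AAV replicates 4 and 5 had 0.16 and 0.34 with saline replicates 3 and 4. No test took such pairs into account. The fit has no replicate block, and a block in HOMO muscle at 21 dpi and HET muscle at 7 dpi was an alternative. Genes named beside the 3 were the 5 most and 3 least like each over group means, Ttn, Ccn2, and up to 4 of each list with the smallest p in HOMO muscle at 7 dpi, and 1 gene that the rule names is not reported here. The genes and the lists were chosen with earlier results of these data known. Alternatives changed the pseudocount, filter, scaling, test, samples fitted and replicates.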

Additional observations from a re-analysis of the deposited data

Results flagged for a closer look

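The check covered 36 sets, each of them 1 of the 3 genes in 1 group of 4 or 5 libraries. Of these, 2 held a library far from the others, and chance gives about 1 in 20. The sets of different genes share libraries and are not independent. Ankrd1 in WT AAV replicate 3 at 7 dpi was the highest of its group at 13.3 normalised counts, and Ankrd2 in WT AAV replicate 1 at 21 dpi was the highest of its group at 95.1.

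Responses to AAV differed between genotypes or days in 7 tests with limma, given here as log2 differences. The HOMO response differed from the WT response at 3 dpi by 2.93 for Ankrd1 and by -1.15 for Ankrd23, and at 7 dpi by 4.28 for Ankrd1. The HET response differed from the WT response at 7 dpi by 6.51 for Ankrd1 and 2.98 for Ankrd2. The HOMO response differed from the HET response by -3.48 for Ankrd2. The WT response of Ankrd1 was larger at 21 than at 7 dpi by 3.87.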

How the results depend on the processing

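The called AAV changes of Ankrd1 (5) and Ankrd2 (1) kept direction and call in every alternative run, and pseudocounts, no filter, median-of-ratios scaling and summing Gm42417 changed no call. Where a value moved, the cause was not tested. With a filter at 5 CPM Ankrd2 passed in HOMO against WT saline muscle at 3 dpi (2.07). Under quantile normalization Ankrd23 stood at 0.09 in WT muscle at 3 dpi and -0.30 in HOMO muscle at 7 dpi, with r = 0.02 against Ankrd1, and the median of all genes moved to -0.12 in HOMO muscle at 21 dpi. By edgeR and DESeq2 Ankrd2 fell in HOMO muscle at 21 dpi (-1.29 and -1.30), the HOMO and WT responses of Ankrd1 at 3 dpi no longer differed by the test (2.39 and 2.37), and Ankrd2 in HET against WT saline muscle was -0.01 in both. DESeq2 also called Ankrd1 in HOMO against WT saline muscle at 7 dpi (2.38). Voom lost Ankrd1 in the HOMO and WT responses at 3 dpi (3.06) and in HOMO against HET saline muscle (2.71). Fitting only the compared groups lost the Ankrd1 difference between HOMO and WT responses at 3 dpi (2.93). It gained Ankrd2 in HOMO muscle at 21 dpi (-1.19), Ankrd23 between HET and WT responses (-0.65), Ankrd1 between HOMO and HET responses (-2.23), Ankrd23 in HOMO against WT saline muscle at 3 and 21 dpi (-0.53 and -0.36) and Ankrd23 between WT days (-0.78). With a replicate block within HOMO muscle at 21 dpi and HET muscle, where the numbers paired samples, no call of the 3 genes changed. Elsewhere same-number pairs had r of -0.24 to 0.31 and were not taken as paired. Some of these were above 0.1, at 0.28 and 0.24 in HOMO muscle at 3 dpi and 0.15 and 0.31 in WT muscle at 7 dpi. With 1 replicate block over all groups, Ankrd23 in WT muscle at 3 dpi was 0.01, Ankrd1 between HOMO days 7 and 21 was -0.01, and Ankrd2 passed in HOMO against WT saline muscle at 3 dpi (2.17).

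Relative to the summed fibre markers, chosen after seeing the data, Ankrd23 was 0.10 in WT muscle at 3 dpi, -0.32 in WT muscle at 21 dpi, and 0.05 and -0.16 in HOMO muscle at 7 and 21 dpi. Ankrd2 was 0.19 and 0.01 in HOMO muscle at 3 and 7 dpi. Differences between HOMO and WT responses were 0.16 for Ankrd2 at 7 dpi, and 0.17 and 0.16 for Ankrd23 at 7 and 21 dpi. Of 10988 genes called in HOMO muscle at 7 dpi 10888 were higher on this scale, against 2687 of 5616. Calls with AAV on this scale were 8057 against 4505 and 11661 against 7714 in HOMO muscle at 3 and 21 dpi and 10139 against 5329 in WT muscle at 21 dpi. Between HOMO and WT responses they were 7479 against 2623 and 1149 against 732 at 7 and 21 dpi, between HOMO days 3 and 7 466 against 776, and between WT days 5834 against 2495. In saline muscle they were 182, 114 and 197 against 297, 271 and 432 for HOMO and WT, and 298 against 667 for HOMO and HET. Without the 2 farthest libraries, r against the transgene was -0.24 for Ankrd1 and 0.81 for Ankrd2 in HOMO muscle and -0.44 for Ankrd23 in WT muscle, and r between Ankrd23 and Ankrd1 was 0.12. Voom, the summed Gm42417 and the block within comparisons were also chosen after seeing the data.

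Leaving out 1 replicate at a time gave these ranges where a call or sign moved. For Ankrd1: HOMO minus WT responses at 3 dpi 2.41 to 3.42, HOMO days 7 to 21 -0.18 to 0.72, HOMO minus HET saline 2.06 to 2.88. For Ankrd2 with AAV: -0.36 to 0.85, -1.09 to 0.46 and -0.34 to 0.49 in WT muscle at 3, 7 and 21 dpi, and -1.46 to -0.90 in HOMO muscle at 21 dpi. For Ankrd2 between responses: -1.17 to 0.04 and -1.18 to 0.38 for HOMO minus WT at 3 and 7 dpi, 2.30 to 3.86 for HET minus WT, -0.65 to 0.05 for HOMO days 3 to 7, and -0.27 to 1.28 for WT days 7 to 21. For Ankrd2 in saline: 1.46 to 2.67 and 0.85 to 2.41 for HOMO minus WT at 3 and 7 dpi, -0.68 to 0.88 for HET minus WT, and 1.09 to 1.96 for HOMO minus HET. For Ankrd23: -0.08 to 0.04 in WT muscle at 3 dpi, -1.29 to -0.95 and -0.43 to 0.15 for HOMO minus WT responses at 3 and 21 dpi, -0.01 to 0.27 for HOMO minus HET responses, -0.11 to 0.04 for HET minus WT saline, and -0.92 to -0.64 for WT days 7 to 21. Within-library ratios of Ankrd1 to Ankrd2 spanned 3.5 to 4.09 and 4.78 to 5.89 in HOMO muscle at 3 and 21 dpi and 2.76 to 3.73 in HET muscle. Ratios of Ankrd1 to Ankrd23 spanned 4.15 to 5.05, 5.05 to 5.71 and 6.70 to 7.22, and ratios of Ankrd2 to Ankrd23 -0.36 to 0.43 and -0.51 to 0.35 in HOMO muscle at 7 and 21 dpi and 3.22 to 4.03 in HET muscle. The count of genes called in HET against WT saline muscle was 26, and 5 to 62 in the alternatives (8 with the block); it was 601 against 422 between HOMO and HET responses when only compared groups were fitted, 1013 against 432 in HOMO against WT saline muscle at 21 dpi, 121 against 732 between HOMO and WT responses at 21 dpi, and 510 against 776 and 615 against 1798 between HOMO days 3 to 7 and 7 to 21. Voom called 1534 against 2495 between WT days. With 4 against 3 libraries the exact test of a ratio cannot pass the adjusted threshold. The depth of HOMO AAV replicate 2 at 7 dpi, 6901207 reads, limits its low counts most.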

Other observations

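Markers of other cells moved with AAV as well, as counts only. Of 11 fibroblast markers 9 rose in HOMO muscle at 7 dpi, in HET muscle and in WT muscle at 21 dpi, and 0 fell. Of 10 endothelial markers 8, 7 and 9 fell in these comparisons and 0 rose. Of 12 fast fibre genes 9, 6 and 7 fell, and 0, 1 and 0 rose. Postn, which encodes the matrix protein periostin, rose by 4.18 ± 0.35 in HOMO muscle at 7 dpi (limma adjusted p = 4.74e-12), and Kdr, an endothelial receptor, fell by 1.27 ± 0.18 (adjusted p = 2.98e-07). Of 8 satellite cell markers 2, 3 and 3 rose and 1, 1 and 0 fell. Of all genes, 20.6%, 19.6% and 19.7% rose and 22.5%, 20.8% and 21.3% fell in these comparisons.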
